A study of Homo sapiens with 9 samples.

Results

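KMO, kynurenine 3-monooxygenase, and the genes of the pathway it belongs to are described here in SKNO-1, a cell line from human acute myeloid leukaemia that carries the AML1-ETO fusion. The set held 8 of the 25680 gene symbols counted: the entry enzymes IDO1 and TDO2, the formamidase AFMID, KMO itself, kynureninase (KYNU), the aminotransferase AADAT, the dioxygenase HAAO and the transferase QPRT. Members were found by exact symbol, and each was represented by the RefSeq transcript with the highest total over all samples. KMO was chosen because an earlier fit of these counts had called it with either shRNA, so its values against the control are a description and carry no test. The others were chosen for their place in the pathway, with earlier results of these counts known.

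The study asked how loss of ASXL2, a Polycomb-associated chromatin regulator, alters transcription in AML1-ETO leukaemia. RNA was sequenced from 9 SKNO-1 samples: 3 labelled EV, 3 with the ASXL2 shRNA SH2 and 3 with the ASXL2 shRNA SH3. All 9 were 1 cell line, and its fusion was present in the controls too. The labels do not spell out EV, the study describes a control shRNA, and the extraction text in the labels describes sorted bone marrow cells, so the control vector and the RNA extraction are uncertain. Each group has samples numbered 1, 13 and 25. The study states 3 biological replicates per group without saying what the numbers stand for, and samples of the same number deviated together, so each comparison was also fitted with the number as a block.

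The kynurenine pathway is the main route by which cells break down the amino acid tryptophan. IDO1 or TDO2 opens the tryptophan ring, and AFMID then releases kynurenine. Kynurenine has several fates: KMO, a flavoprotein of the outer mitochondrial membrane, hydroxylates it, AADAT converts it to kynurenic acid, and KYNU cleaves kynurenine or its hydroxylated form. HAAO and QPRT carry the hydroxylated branch through quinolinic acid towards NAD. Kynurenine and kynurenic acid are ligands of the aryl hydrocarbon receptor, and IDO1 is known as a gene induced by interferon-gamma and as a suppressor of T cells.

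In GRCh37 the KMO gene spans 241695434 to 241758944 of chromosome 1 (plus strand), and AADAT spans 170981373 to 171012850 of chromosome 4 (minus strand). These are the members whose values parted most between the knockdown and control samples, in opposite directions, so their promoters are shown. The 250 bases upstream of the start site, from RefSeq on GRCh38.p14, are chr1:241532128-241532377 (plus strand) for KMO and chr4:170090388-170090637 (minus strand) for AADAT, the outermost of the 3 AADAT starts listed. Capitals mark TATAAA, the ETS core GGAA or its reverse complement TTCC, and the RUNX letters TGTGGT or TGCGGT, searched on both strands.
KMO: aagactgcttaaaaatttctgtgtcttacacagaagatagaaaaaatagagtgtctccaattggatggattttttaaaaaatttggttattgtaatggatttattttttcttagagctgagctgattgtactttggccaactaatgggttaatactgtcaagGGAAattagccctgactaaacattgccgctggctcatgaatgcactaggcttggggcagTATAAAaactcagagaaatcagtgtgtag
AADAT: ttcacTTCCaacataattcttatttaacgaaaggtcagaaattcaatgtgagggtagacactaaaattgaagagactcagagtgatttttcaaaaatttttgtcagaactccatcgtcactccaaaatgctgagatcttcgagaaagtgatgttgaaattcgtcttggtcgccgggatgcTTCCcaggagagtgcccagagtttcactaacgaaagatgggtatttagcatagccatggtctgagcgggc
The KMO window was AT-rich, with a GC content of 36% against a median of 58% over 35116 such windows. It held TATAAA beginning 29 bases before the start, letters present in 10.7% of all windows, and GGAA 88 bases before it, present in 92.7%. Neither RUNX string was found in it (TGTGGT in 11% and TGCGGT in 5.84% of all windows). The AADAT window shown had 41.6% GC and held the ETS core letters in reverse at 2 places. The windows of the other AADAT starts had 61.6% and 78.8% GC, and the latter held TGCGGT, 209 bases before its start. These are matches of letters in the window and not binding sites.

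ASXL2 transcripts were lower in every knockdown sample, which checks the labels. ASXL2 was at 48.8% ± 4.26 (SD, n = 3) of the EV sample of the same number with SH2 and at 45.8% ± 8.13 (SD, n = 3) with SH3. Library totals with 1 transcript per gene were 27714431 to 35406063 counts. Of the blast markers listed, MPO (6368 to 10240 CPM), KIT, CD33 and RUNX1T1 were abundant, whereas CD34 reached at most 0.309 CPM. The 8 monocyte or macrophage markers summed to 54.5 to 62.7 CPM in EV, 59.3 to 66.5 CPM in SH2 and 55.9 to 82.1 CPM in SH3, with LYZ the main contributor and CD14 at most 0.101 CPM. The 4 T cell markers summed to at most 0.173 CPM, with CD3E and CD3G at 0 in all samples, and the 4 stromal markers to at most 2.03 CPM, with COL1A2 at 0. The part of such cells in the results below was not tested.

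The entry step was almost without transcripts. TDO2 had no count in any of the 9 samples, and IDO1 had 1 count in the SH2 sample numbered 1 and 0 elsewhere. A count of 0 at this depth allows up to 3 counts, or 0.0847 to 0.108 CPM (CPM, counts relative to library size, for counting error only). Neither gene passed the filter on low counts, and no difference was detectable for either at this depth. The 6 other members passed it, and only these 6 enter the comparisons.

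The level of KMO was higher in every knockdown sample than in every control. It was 19.3, 12.1 and 17.6 CPM, relative to the TMM-scaled library size, in EV numbers 1, 13 and 25. With SH2 it was 27.1, 19.7 and 24.7 CPM, and with SH3 it was 30.2, 22.5 and 27.1 CPM. The groups did not overlap, but the lowest SH2 sample lay close to the highest EV sample. The samples numbered 13 were the lowest of each group, and within each number the order was EV, SH2, SH3. Relative to the EV sample of the same number, the level was 1.48-fold ± 0.13 (SD, n = 3) with SH2 and 1.65-fold ± 0.17 (SD, n = 3) with SH3. Among all 14199 tested genes, 2.16% had all 6 knockdown samples above all controls, a count from which nothing is read for KMO because the same contrast chose it.

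**Figure D1:**
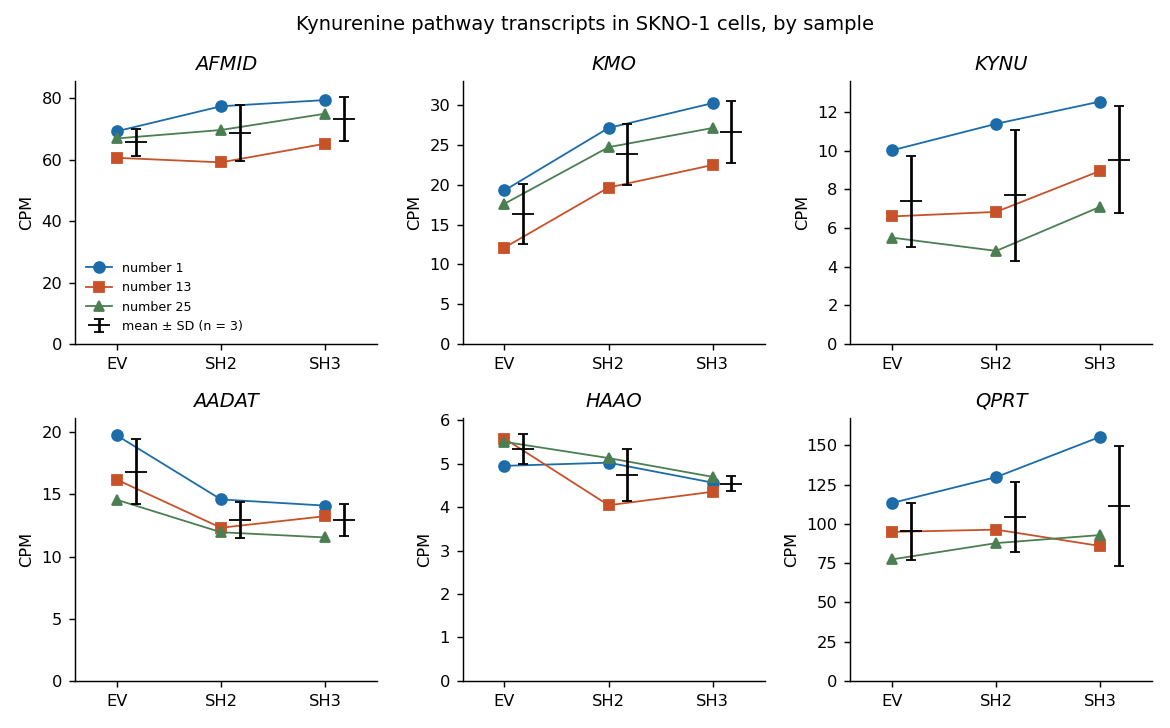
Level of the 6 pathway members with measurable transcripts in each of the 9 samples (vertical axis, CPM from 0; horizontal axis, group). Coloured points joined by lines are samples of the same number, and black bars are the mean ± SD of the 3 samples of a group. KMO is higher in all 6 knockdown samples (19.7 to 30.2 CPM) than in EV (12.1 to 19.3 CPM), AADAT is lower within each number, and the other members overlap or differ little.

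The fitted log2 fold change of KMO was 0.54 (SE 0.20) with SH2, 0.70 (SE 0.20) with SH3 and 0.62 (SE 0.17) for the mean of both against EV. When the number entered as a block, the values were 0.55 (SE 0.08), 0.72 (SE 0.08) and 0.64 (SE 0.07), so the estimate stayed and its error shrank. The 2 shRNAs share the EV samples, so these values are not independent of each other. The choice used the values of both shRNAs, so a test between them is not wholly independent of it. The difference between the shRNAs was not itself the basis of the choice and was tested. It was 0.16 on the log2 scale (95% interval -0.28 to 0.60, edgeR adjusted p = 0.998) without the block and 0.16 (-0.02 to 0.34, edgeR adjusted p = 0.462) with it, and SH3 exceeded SH2 in all 3 numbers. Neither the equality of the shRNAs nor a difference is shown by these intervals.

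KMO shares exon sequence with another gene, which limits what its count measures. Its last exon (chromosome 1, 241755255 to 241758944, 3690 bases, GRCh37) contains the whole last exon of OPN3 (241756426 to 241757993, 1568 bases), which encodes an opsin and runs on the opposite strand. The shared stretch is 31.25% of the exon bases of KMO and 59.7% of those of OPN3. The labels name a TruSeq RNA kit, and the study's methods describe unstranded libraries in a passage written for sorted mouse cells. Whether the SKNO-1 libraries were unstranded is therefore not certain. If they were, reads from either gene in this stretch cannot be told apart.

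OPN3 values moved beside those of KMO. OPN3 was at 29.4, 15.6 and 25.9 CPM in EV, at 36.3, 23.4 and 29.8 CPM in SH2 and at 41.5, 23.9 and 36.2 CPM in SH3, for the samples numbered 1, 13 and 25. The groups overlapped, but each knockdown sample lay above the EV sample of its number, and the sample numbered 13 was the lowest in each group, as for KMO. Without the block OPN3 was not called (log2 fold change 0.33 with SH2, edgeR adjusted p = 0.980, and 0.52 with SH3, edgeR adjusted p = 0.971). With the block it rose with SH3 (0.53, SE 0.08, edgeR adjusted p = 0.0308) and missed the threshold with SH2 (0.36, SE 0.08, edgeR adjusted p = 0.0925). Because of the shared stretch, this call cannot be taken as independent of the values that chose KMO.

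The ratio of KMO to OPN3 was higher in each knockdown sample than in the EV sample of its number, although the groups overlapped. In numbers 1, 13 and 25 it was 0.656, 0.776 and 0.679 in EV, 0.748, 0.839 and 0.830 in SH2 and 0.728, 0.939 and 0.749 in SH3. The means were 0.704 ± 0.063 (SD, n = 3), 0.806 ± 0.050 and 0.805 ± 0.117. These ratios are a description, since KMO was selected on this contrast. Reads shared by isoforms were counted in each row, so reads of the shared stretch may likewise have entered the counts of both KMO and OPN3. How much of either value they make up was not tested. CHML, which lies within the OPN3 locus and shares 488 exon bases with OPN3 and 0 with KMO, had values in the opposite direction, with log2 fold changes of -0.19 (SE 0.15, edgeR adjusted p = 0.980) with SH2 and -0.20 (SE 0.15, edgeR adjusted p = 0.971) with SH3. It passed in neither fit.

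**Figure D2:**
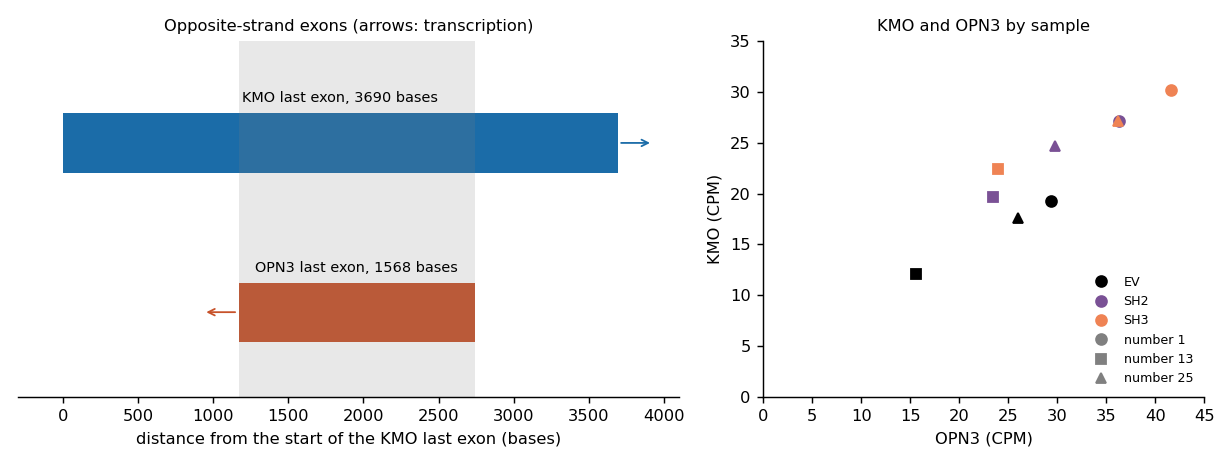
Left, the last exons of KMO and OPN3 drawn to scale (horizontal axis, bases from the start of the KMO last exon), with arrows for the direction of transcription and grey for the shared 1568 bases. Right, KMO against OPN3 in the 9 samples (CPM on both axes from 0), coloured by group and shaped by number. Both genes are lowest in the EV sample numbered 13 (15.6 CPM of OPN3, 12.1 CPM of KMO) and highest in the SH3 sample numbered 1 (41.5 and 30.2 CPM).

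AADAT, the aminotransferase that competes for kynurenine and makes kynurenic acid, had lower values with either shRNA. Its level was 19.8, 16.2 and 14.6 CPM in EV numbers 1, 13 and 25. With SH2 the values were 14.6, 12.3 and 11.96 CPM and with SH3 they were 14.1, 13.25 and 11.5 CPM. Every knockdown sample was below the EV sample of its number, at 77.4% ± 4.21 (SD, n = 3) of it with SH2 and 77.5% ± 5.43 (SD, n = 3) with SH3. All 3 SH3 samples lay below all EV samples, whereas the SH2 sample numbered 1 was just above the lowest EV sample, so the 6 knockdown samples together did not clear the controls. Over all tested genes, the SH3 samples lay below all controls for 5.28%. Of the 6 tested members 0 had all 6 knockdown samples below all controls, and over all tested genes this held for 2.61%.

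The AADAT difference passed the test for the mean of both shRNAs only when the replicate number was a block. Without the block the log2 fold change was -0.38 with SH2 (SE 0.15, edgeR adjusted p = 0.892), -0.38 with SH3 (SE 0.15, edgeR adjusted p = 0.967) and -0.38 for the mean (SE 0.13, edgeR adjusted p = 0.677). With the block it was -0.37 (SE 0.09) for each shRNA, at edgeR adjusted p values of 0.0929 and 0.0887. The blocked mean contrast gave -0.37 (SE 0.08, edgeR adjusted p = 0.0488), and leaving out the samples of number 1, 13 or 25 in that fit gave -0.33, -0.39 and -0.41 and ended the call (edgeR adjusted p = 0.0665, 0.156 and 0.313), as did the correction for transcript length and GC content (-0.44, edgeR adjusted p = 0.0534). The EV sample numbered 1, the highest of all, weighed most: without it the unblocked mean contrast was -0.25. Between the shRNAs AADAT differed by 0.00069 on the log2 scale without the block and 0.0021 with it, at 95% intervals of -0.34 to 0.34 and -0.20 to 0.20.

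KMO and AADAT sit at the same branch point, and the ratio of their CPM separated the groups. KMO was 0.977-fold ± 0.230 (SD, n = 3) of AADAT in EV, 1.84-fold ± 0.24 in SH2 and 2.06-fold ± 0.33 in SH3. The highest EV ratio was 1.21 and the lowest knockdown ratio 1.59. KYNU also takes kynurenine, and the ratio of KMO to KYNU did not separate the groups, with ranges of 1.84 to 3.20 in EV, 2.38 to 5.13 in SH2 and 2.41 to 3.82 in SH3. KMO alone already separated the groups and was selected on this contrast, so these ratios too are descriptions. AADAT was not the only aminotransferase measured: CCBL2 was at 39.5, 42.7 and 46.4 CPM in EV, SH2 and SH3. GOT2 was at 149, 165.5 and 153.8 CPM and CCBL1 at 9.90, 9.38 and 9.55 CPM in the same order. A shift of the branch was not tested.

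KYNU, kynureninase, differed between numbers in every group. It was at 10.01, 6.60 and 5.502 CPM in EV, at 11.4, 6.83 and 4.82 CPM in SH2 and at 12.5, 8.95 and 7.10 CPM in SH3, so the sample numbered 1 was the highest of each group and the groups overlapped. SH2 was on both sides of EV (higher in 2 of 3 numbers), and SH3 was higher in 3 of 3 numbers. KYNU was called in neither fit: its log2 fold change was 0.06 (SE 0.35, edgeR adjusted p = 0.998) with SH2 and 0.37 (SE 0.35, edgeR adjusted p = 0.976) with SH3 without the block. With the block it was 0.03 (SE 0.12) with SH2 and 0.38 (SE 0.12) with SH3, with 0.915 and 0.137 as the adjusted p values of edgeR, and the difference between the shRNAs was 0.35 (95% interval 0.09 to 0.60, edgeR adjusted p = 0.286). The SH3 value moved with single libraries, from 0.12 without the SH3 sample numbered 1 to 0.66 without the EV sample numbered 1 in the unblocked fit. With the correction for length and GC content, made with the length of another KYNU isoform than the counted one, it was 0.54 in either fit (edgeR adjusted p = 0.119 with the block).

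AFMID, the formamidase upstream of the branch, was among the more abundant members and moved little. Its level was 69.2, 60.6 and 66.9 CPM in EV, 77.4, 59.1 and 69.7 CPM in SH2 and 79.4, 65.2 and 75.0 CPM in SH3. The groups overlapped and the samples numbered 13 were the lowest of each. The log2 fold change was 0.07 (SE 0.12, edgeR adjusted p = 0.992) with SH2 and 0.16 (SE 0.12, edgeR adjusted p = 0.971) with SH3.

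The enzymes downstream of KMO were not called either. HAAO, the member with the lowest mean CPM of the 6, was at 4.95, 5.58 and 5.502 CPM in EV, 5.02, 4.04 and 5.13 CPM in SH2 and 4.56, 4.35 and 4.70 CPM in SH3. All SH3 samples lay below all EV samples, while SH2 overlapped EV. That made 2 of the 6 tested members, AADAT and HAAO, with SH3 wholly below EV, beside the 5.28% of all tested genes. For HAAO the log2 fold change was -0.18 (SE 0.16) with SH2 and -0.24 (SE 0.16) with SH3, at adjusted p values of 0.980 and 0.971 in edgeR. QPRT, which makes the NAD precursor nicotinic acid mononucleotide, was at 113, 94.9 and 77.4 CPM in EV, 130, 96.3 and 87.8 CPM in SH2 and 156, 85.9 and 92.9 CPM in SH3. The QPRT groups overlapped, and the SH3 sample numbered 1 stood above all others. Its log2 fold change was 0.14 (SE 0.24) with SH2 and 0.23 (SE 0.24) with SH3, at adjusted p values of 0.992 and 0.980 in edgeR.

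**Figure D3:**
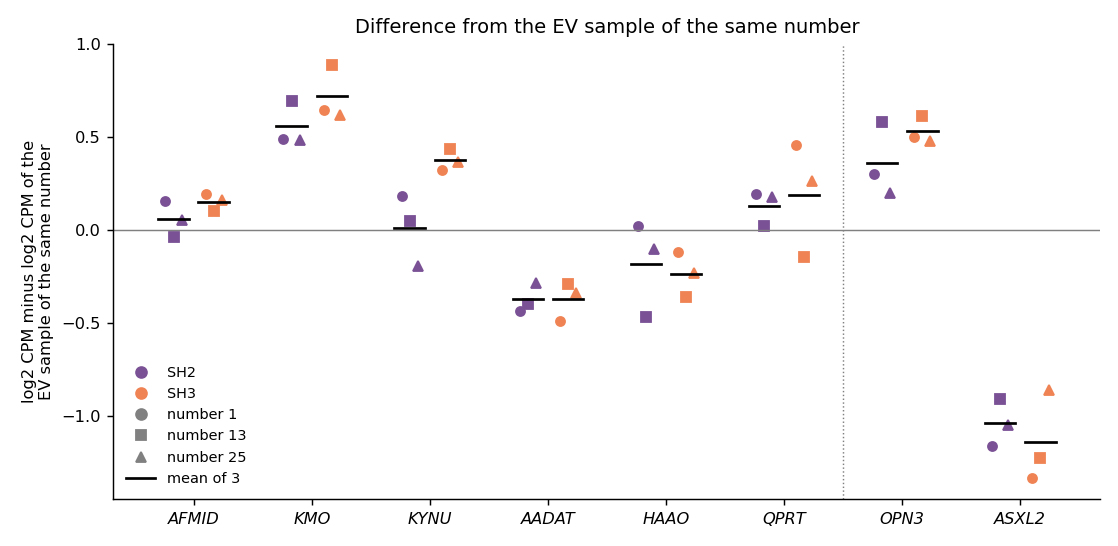
Difference in log2 CPM between each knockdown sample and the EV sample of the same number (vertical axis) for the 6 members and, right of the dotted line, OPN3 and ASXL2. Points are single samples, coloured by shRNA and shaped by number, and black lines are the mean of 3. All 6 KMO points lie between 0.49 and 0.89 and all 6 AADAT points between -0.49 and -0.28, whereas points of AFMID, KYNU, HAAO and QPRT fall on both sides of 0.

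Counted over the members, edgeR without the block called 0 of the 6 in each contrast, against a background of 0% of the 14199 tested genes called (0 genes). ASXL2 itself was not called there (edgeR adjusted p = 0.808 with SH2 and 0.612 with SH3). At an unadjusted p under 0.05 that fit had 762 genes with SH2, 723 with SH3, 942 for the mean and 293 between the shRNAs. DESeq2 without the block called 25, 26, 56 and 11 genes in the same contrasts, with 0 of the members among them. The blocked fit called 1 member with SH2 (background 0.282%), 1 with SH3 (0.416%) and 2 for the mean of both (1.10%), namely KMO each time and AADAT in the last. Since KMO had been chosen for such calls, only the AADAT call is an addition. Between the shRNAs the blocked fit called 0 members against a background of 0.106%.

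Levels of different members were compared per kilobase of transcript. In EV the order was QPRT (43.3 ± 8.16 CPM per kilobase, SD, n = 3), AFMID (38.9 ± 2.65), AADAT (7.48 ± 1.18), HAAO (4.25 ± 0.27) and KMO (3.25 ± 0.75). QPRT and AFMID overlapped, and the others did not overlap their neighbours, the KMO range of 2.41 to 3.84 ending just under the HAAO range of 3.94 to 4.44. In SH3 the level of KMO was 5.30 ± 0.78 CPM per kilobase, overlapping AADAT (5.76 ± 0.58) and above all HAAO samples (3.61 ± 0.14). The KMO level includes any OPN3 reads in the shared exon. KYNU was left out because the annotated transcript length (15151 bases) belongs to another isoform than the counted one. The other lengths too are those of canonical GENCODE transcripts and not of the counted RefSeq rows. Ranges that lie close, as those of KMO and HAAO in EV, depend on these lengths.

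Counts of the other transcripts of a gene gave nearly the same picture as the one used. AADAT had 4 RefSeq rows, and the other 3 held 95.1% to 99.0% of the counts of the row used. For AFMID, 1 further row was almost identical (99.9% to 100%) and a non-coding row held 22.6% to 27.8%. For KYNU the shorter isoform held 67.1% to 75.7%. Its group means were 71.4% ± 1.49 in EV, 70.8% ± 4.41 in SH2 and 69.5% ± 1.79 in SH3 (SD, n = 3). KMO, HAAO, QPRT, IDO1 and TDO2 had 1 row each.

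Around the members, 6 lists of pathway genes held 51 genes, of which 39 passed the filter on low counts. Without the block 0 of the 39 were called in any contrast. With it, 0 rose and 1 fell with SH3 and for the mean, and 0 were called with SH2 or between the shRNAs, beside backgrounds of 0.416% (SH3), 1.10% (mean), 0.282% (SH2) and 0.106% (between the shRNAs) of all tested genes. The gene that fell was JAK1, a kinase that carries interferon signals, at 146 ± 11.3 CPM in EV, 121 ± 4.26 in SH2 and 112 ± 4.82 in SH3 (SD, n = 3). Its log2 fold change for the mean was -0.33 (SE 0.08), and the edgeR adjusted p values were 0.623 unblocked and 0.0379 blocked.

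In the interferon-gamma list 7 of 8 genes were tested, and IRF8, a transcription factor of the monocyte lineage, had no count in any sample. The median log2 fold change of the 7 for the mean contrast was 0.12, against 0.01 over all genes. Besides JAK1, its kinase partner JAK2 had a value of -0.23 (SE 0.09, edgeR adjusted p = 0.704 without the block and 0.107 with it). The receptor chain IFNGR1 was at 0.16 (SE 0.08, edgeR adjusted p = 0.785) and the myeloid factor SPI1 at 0.12 (SE 0.07, edgeR adjusted p = 0.839). The list thus held values on both sides of 0.

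Genes of tryptophan entry and of its other fates were tested for 8 of 12, with a median log2 fold change of 0.12 for the mean contrast and 0 calls. IDO2 and INMT had no count, and TPH1 and TPH2, which start serotonin synthesis, were below the filter. The amino acid transporter SLC7A8 was low, at 1.25 ± 0.10 CPM in EV, 0.721 ± 0.300 in SH2 and 0.746 ± 0.159 in SH3, and its log2 fold change of -0.76 (SE 0.28) came with edgeR adjusted p values of 0.702 unblocked and 0.0894 blocked. IL4I1, an amino acid oxidase that acts on tryptophan, had a value of 0.40 (SE 0.22, edgeR adjusted p = 0.819). WARS, the tryptophanyl-tRNA synthetase, had 0.26 (SE 0.13, edgeR adjusted p = 0.8004), and the aromatic amino acid transporter SLC16A10 had -0.14 (SE 0.10, edgeR adjusted p = 0.890).

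The sensors of kynurenine metabolites were tested for 6 of 9 genes, with a median of 0.12 and 0 calls. CYP1A1, the classical target of the aryl hydrocarbon receptor, was at 17.7 ± 3.31 CPM in EV, 27.1 ± 11.5 in SH2 and 31.8 ± 15.2 in SH3. Its log2 fold change was 0.73 (SE 0.33), and the edgeR adjusted p values were 0.759 unblocked and 0.194 blocked. The receptor itself, AHR, had 0.17 (SE 0.15, edgeR adjusted p = 0.928) and its repressor AHRR, abundant at 416 ± 37.1 CPM in EV, had -0.13 (SE 0.13, edgeR adjusted p = 0.937). NQO1, a detoxifying reductase, had 0.37 (SE 0.41, edgeR adjusted p = 0.948).

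The 3 remaining lists had 0 calls in either fit. In NAD synthesis and use, 9 of 13 genes were tested with a median of -0.02, and the smallest p was that of CD38, an NAD-consuming surface enzyme (-0.18, SE 0.08, edgeR adjusted p = 0.744), while NAMPT, the salvage enzyme for nicotinamide, had 0.19 (SE 0.14, edgeR adjusted p = 0.896). NAPRT and NADSYN1 had -0.11 (SE 0.07) and -0.09 (SE 0.08). In the side branches of kynurenine, 6 of 6 were tested with a median of -0.07, and CCBL2, a further kynurenine aminotransferase, had 0.17 (SE 0.13, edgeR adjusted p = 0.888), unlike AADAT in sign. The values of GOT2, CCBL1 and ACMSD were 0.10 (SE 0.16), -0.07 (SE 0.16) and -0.13 (SE 0.32). In cofactor supply, 3 of 3 were tested with a median of 0.02, the FAD makers RFK (0.07, SE 0.10) and FLAD1 (0.02, SE 0.19) and the pyridoxal kinase PDXK (-0.0035, SE 0.11).

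**Figure D4:**
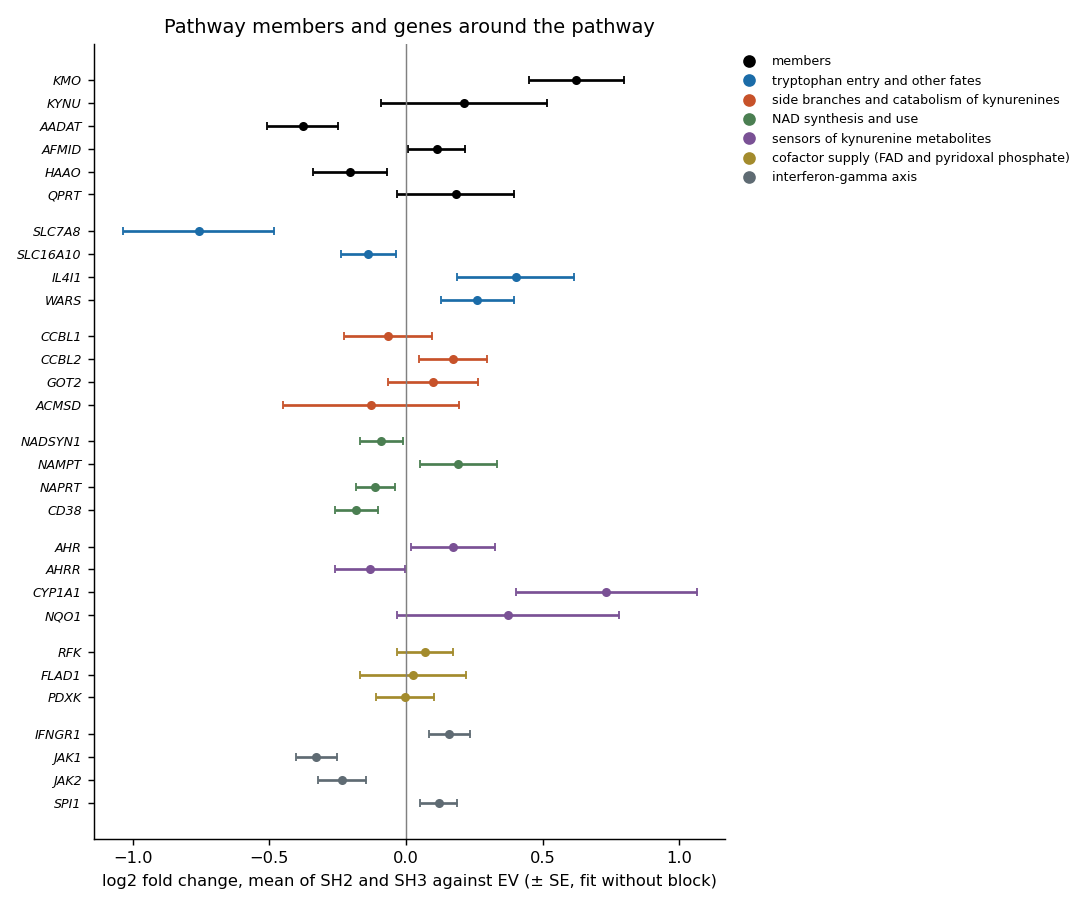
Log2 fold change (horizontal axis) for the mean of SH2 and SH3 against EV in the fit without the block, as points with bars of 1 SE, for the 6 tested members and up to 4 genes of each of the 6 lists, coloured by list. KMO (0.62) and CYP1A1 (0.73) lie farthest to the right and SLC7A8 (-0.76) farthest to the left, and none of the genes drawn passed the adjusted threshold in this fit.

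Of 7 neighbours of KMO on the same chromosome band, 4 passed the filter on low counts. OPN3 was the only one called, in the blocked fit (1 rose with SH3 and for the mean). Over all tested genes that fit called 0.416% with SH3 and 1.10% for the mean. OPN3 shares 59.7% of its exon bases with KMO, so its call cannot be taken as independent of the values that chose KMO. The adjacent fumarase gene FH had 0.06 (SE 0.17, edgeR adjusted p = 0.986) for the mean contrast and the exonuclease EXO1 0.18 (SE 0.14, edgeR adjusted p = 0.899). RGS7, the gene on the other side of FH, had no count.

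The genes whose pattern was most like that of KMO were found by the Pearson correlation of log2 CPM over the 9 samples, among the 14199 tested genes. They were TMEM182 (r = 0.972), CEBPD (0.951), RBMX2 (0.939), MORF4L2 (0.935) and APOL2 (0.934), with OPN3 in place 8 (0.927). CEBPD, a myeloid transcription factor, had group means of 23.4, 30.3 and 37.2 CPM in EV, SH2 and SH3. After the mean of the 3 samples of each number was subtracted, the leading genes were SLC15A4 (0.987), NRP1 (0.987), VEZT (0.982), SRBD1 (0.981) and ADPGK (0.981), with OPN3 in place 9 (0.969). NRP1, a semaphorin and growth factor co-receptor, had group means of 2.42, 3.87 and 4.58 CPM. Among the members, AFMID was most like KMO over the 9 samples (0.806) and AADAT least (-0.463), with HAAO close to it (-0.454). After subtraction AADAT stood at -0.923 and HAAO at -0.82. The values after subtraction largely restate the differences between groups for which KMO was chosen. The points share libraries, scaling and controls, and OPN3 shares exon bases with KMO, so these values are descriptions.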

How the data were processed

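Counts from 9 SKNO-1 RNA samples were used, 3 per group. The authors deposited whole-number counts per RefSeq transcript, not normalized, on hg19 (GRCh37). The submitters' processing notes name STAR, featureCounts and DESeq2, with versions not given in the sources used here. Reads shared by isoforms were counted in each row, so 1 row per symbol was kept (the highest total). Totals were 27714431 to 35406063 counts, and the floors for genes without counts cover counting error only.

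Genes were kept by filterByExpr (minimum count 10, minimum total 15; 14199 genes) and fitted in edgeR 4.0.16 (R 4.3.3), with TMM scaling, all 9 samples, 1 coefficient per group and the quasi-likelihood F test. P values were adjusted by Benjamini-Hochberg over all tested genes within a contrast, with a threshold of 0.05. The SE is the log2 fold change divided by the square root of F, and the 95% intervals use edgeR's moderated degrees of freedom. Log2 CPM in single samples used a pseudocount of 0.5 counts. The fits were tested on simulated data.

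The replicate number was added as a block in a further fit. The labels give each group the numbers 1, 13 and 25. Deviations from the group means correlated at 0.377 to 0.718 over the 9 same-number pairs (mean 0.578). Over the 18 different-number pairs the range was -0.604 to 0.302 (mean -0.282). Deviations within a group cancel out, so the different-number values follow in part from the same-number ones. The numbers were taken to pair the samples. DESeq2 1.42.0, other scalings, filters, left-out samples and a correction for transcript length and GC content were alternatives.

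The members, the lists and the rule for naming genes were chosen with earlier results of these data known. The rule took the members, ASXL2, up to 4 genes of each list with the smallest unadjusted p for the mean contrast, and the 5 genes most like KMO by each of 2 measures. CHML and further symbols with no count are named as neighbours or undetected genes. Positions are from GENCODE v44 on GRCh37, and promoters from RefSeq on GRCh38.p14. No table of protein sequences was used here. 1 gene of the lists is not reported here.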

Additional observations from a re-analysis of the deposited data

How the results depend on the processing

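The fold change of KMO kept its direction under all 25 alternatives that gave a value. KMO was chosen for this contrast in these same counts, so the kept direction is a description and no support for a rise. Its level with the block, DESeq2, other scaling, no filter, summed transcripts or length and GC correction stayed between 0.54 and 0.58 with SH2 and between 0.70 and 0.73 with SH3. Leaving out samples gave 0.37 to 0.68 with SH2, 0.53 to 0.84 with SH3 and 0.45 to 0.76 for the mean, the lowest without the EV sample numbered 13. The replicate block changed no other call of a member than those given above for KMO and AADAT.

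The number of genes called depended on the fit. With the replicate block it was 40 with SH2, 59 with SH3, 156 for the mean and 15 between the shRNAs, against 0 without it. DESeq2 called 25, 26, 56 and 11, and DESeq2 with the replicate block 374, 474, 622 and 152. With the replicate block and the length and GC correction the counts were 4, 12, 19 and 6, and on the genes with a length only (added after seeing the data) 37, 94, 155 and 9. Leaving out samples gave 0 to 267 with SH2, 0 to 341 with SH3, 0 to 370 for the mean and 0 to 129 between the shRNAs, the highest with the block and without number 1. Without number 13 the blocked counts were 9, 24, 7 and 61, and without number 25 they were 0, 1, 1 and 0. The cause was not tested. Members called were 1 with SH2, 1 with SH3 and 2 for the mean with the replicate block, with DESeq2 and the replicate block, and on the genes with a length only. Over all 14199 tested genes the edgeR fit with the replicate block called 0.282%, 0.416% and 1.10% in these contrasts. DESeq2 with the replicate block called 374, 474 and 622 of them, a larger background. On the genes with a length only, 37, 94 and 155 genes were called. With the length and GC correction and the block, members called were 0, 1 and 1, beside 4, 12 and 19 of 12338 genes. Leaving out samples gave 0 to 1 members in each contrast against EV, beside up to 267, 341 and 370 genes. The member called was KMO, joined by AADAT wherever 2 were called. KMO had been chosen for such calls in these counts, so its calls here are a description and no repeated evidence.

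Of 520 tested member values under an alternative, 493 kept direction and side of the threshold and 24 reversed, all of them uncalled, from main values of at most 0.23. AADAT between the shRNAs was -0.0050 without the filter, -0.017 with summed transcripts, -0.0069 with length and GC correction and -0.0054 with that and the replicate block. Leaving out samples gave -0.065 to 0.095 for it (-0.047 with the block and without number 13), -0.026 to 0.16 for AFMID with SH2, -0.0015 to 0.18 for AFMID between the shRNAs, -0.16 to 0.018 for HAAO between the shRNAs, -0.34 to 0.34 for KYNU with SH2 (-0.059 with the block and without number 1), -0.048 to 0.28 for QPRT with SH2, -0.096 to 0.38 for QPRT with SH3 and -0.23 to 0.28 for QPRT between the shRNAs (-0.043 with the block and without number 1).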
